A study of Mus musculus with 5 samples.

Results

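The 8 genes Slc1a2, Slc1a3, Slc1a4, Glul, Slc6a11, Fabp7, Gja1 and Kcnj10, which serve glial transmitter uptake and astrocyte function, were followed through single-cell RNA sequencing of the newborn mouse hippocampus. They were picked by name from the 32285 features of the count matrices. The study set 2 Trem2 knockout (KO) libraries, replicates 2 and 3, against 3 wild-type (WT) libraries, replicates 1, 2 and 3, all from pups at postnatal day 1. Each library pooled 2 pups: replicate 2 of either genotype held 2 males, and every other library 1 female and 1 male, per the sample descriptions. The labels used here state neither the allele nor the strain nor whether litters were shared. Trem2 is a receptor on the surface of microglia.

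Astrocytes clear glutamate from the synaptic cleft with sodium-driven carriers of the Slc1 family, turn it into glutamine with glutamine synthetase, and pass the glutamine back to neurons. Radial glia, the stem cells of the developing hippocampus, already carry some of these proteins and give rise to intermediate progenitors, neurons and later astrocytes. Around birth both stages of the glial lineage lie side by side in this tissue.

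Slc1a2 encodes GLT-1 and Slc1a3 encodes GLAST, the main glutamate carriers of astroglia. Slc1a4 encodes ASCT1, a carrier of serine and other neutral amino acids, and Slc6a11 encodes GAT-3, a GABA carrier of glia. Glul encodes glutamine synthetase. Fabp7 encodes a fatty acid binding protein of radial glia, Gja1 the gap junction protein connexin 43, and Kcnj10 the potassium channel Kir4.1. In the mm10 build, by GENCODE M21, Slc1a2 spans chromosome 2 from 102658659 to 102790784 on the plus strand, and Slc1a3 spans chromosome 15 from 8634124 to 8710764 on the minus strand. Fabp7 is the shortest of the 8, with 3570 bases on chromosome 10 from 57784881 to 57788450. Slc1a2 overlaps the antisense gene model Gm13872, and Glul overlaps Teddm2 on the opposite strand. Both partners are features of the matrices, and the sources used here do not say whether the counting used strand. Whether reads of those overlaps were kept apart was not checked.

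Promoters are shown for Glul, Slc6a11 and Fabp7, the members that differed most between astrocyte-like and radial glia-like cells in the comparison described further on, in which all 8 members were higher in astrocyte-like cells. They are RefSeq sequences of GRCm38.p6 on the plus strand. Capitals mark TGGGAA in either orientation, the core bound by the Notch effector RBPJ.
Glul, chr1:153899679-153899928: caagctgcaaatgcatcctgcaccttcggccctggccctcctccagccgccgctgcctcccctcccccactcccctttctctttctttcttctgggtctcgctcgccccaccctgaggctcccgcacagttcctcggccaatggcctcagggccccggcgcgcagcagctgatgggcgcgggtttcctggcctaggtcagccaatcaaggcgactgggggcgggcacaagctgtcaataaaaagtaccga
Slc6a11, chr6:114130991-114131240: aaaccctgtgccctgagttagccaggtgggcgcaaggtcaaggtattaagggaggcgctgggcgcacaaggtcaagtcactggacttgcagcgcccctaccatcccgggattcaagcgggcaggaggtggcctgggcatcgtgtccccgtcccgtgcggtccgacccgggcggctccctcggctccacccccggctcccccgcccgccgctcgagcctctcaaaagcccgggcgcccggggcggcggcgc
Fabp7, chr10:57784673-57784880: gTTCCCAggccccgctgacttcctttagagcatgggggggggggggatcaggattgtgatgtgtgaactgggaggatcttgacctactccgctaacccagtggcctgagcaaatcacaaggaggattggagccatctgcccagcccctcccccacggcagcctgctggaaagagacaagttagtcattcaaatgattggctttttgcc
All 8 members had an entry in the promoter table. That of Slc1a2, chr2:102706188-102706437, lies inside the gene span given above and not before its start. In the 250 bases before the RefSeq start, TGGGAA on either strand was found in 2 of the 8, Fabp7 and Slc1a4, and in 21.6% of 32851 promoters of that length. The nuclear factor I palindrome, TTGGC and its reverse complement 5 bases apart, was found in 0 of the 8 and in 0.037% of all promoters. The octamer ATTTGCAT was found in 0 of the 8 and 1.60% of all, and the SOX motif ACAATGG in 0 of the 8 and 3.02% of all.

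Of 40345 barcodes, 29201 were kept as single cells, 4470 to 8092 in a library, and the library totals ran from 60024793 to 91205882 unique molecular identifiers (UMIs, which tag single RNA molecules). Pairs of libraries shared 6 to 17 cell barcodes, at most 0.327% of the smaller one. Cells were put into classes by how many genes of fixed marker panels had a UMI, none of the 8 members standing in a panel, and this placed 19214 cells (65.8%). Names of classes end in "like" because they rest on these markers. In microglia-like cells Trem2 stood at 53.7 and 93.5 CPM (counts per 1000000 UMIs) in KO libraries, against 1513, 1537 and 1306 CPM in WT libraries. Both KO libraries lay far below every WT library, and which part of the gene the allele removes is not given in the labels.

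Astroglia had at least 4 of 8 astroglial markers such as Sox9 and Hopx. Radial glia-like cells had none, and astrocyte-like cells at least 2, of 7 astrocyte markers such as Aqp4 and Aldh1l1. Dividing cells, with at least 3 of 8 division markers, were set apart. There were 433 radial glia-like and 2559 astrocyte-like cells that were not dividing, and 781 with 1 astrocyte marker. Astroglia could have at most 1 marker of the excitatory and 1 of the inhibitory neuron panel. They could have at most 2 of the microglia, mural, oligodendrocyte precursor or intermediate progenitor panel, among others. Low sums of these panels are thus partly set by the gate and are no separate check. The summed microglia panel was 11.8 CPM in astrocyte-like and 7.84 CPM in radial glia-like cells. The summed excitatory neuron panel was 48.8 CPM in astrocyte-like and 72.2 CPM in radial glia-like cells. Other panels were higher. The oligodendrocyte precursor panel summed to 315 CPM in astrocyte-like and 437 CPM in radial glia-like cells, the CA3 panel to 156 CPM in astrocyte-like and 146 CPM in radial glia-like cells, and the mural panel to 88.0 CPM in astrocyte-like and 118 CPM in radial glia-like cells. The dentate panel summed to 55.3 CPM in astrocyte-like and 148 CPM in radial glia-like cells, and the intermediate progenitor panel to 21.8 CPM in astrocyte-like and 124 CPM in radial glia-like cells. The red cell panel ranged over libraries from 4.60 to 707 CPM in astrocyte-like and from 5.70 to 973 CPM in radial glia-like cells. The part of these markers in the results was not tested.

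The 8 members together made up 3.16 ± 0.386% of the UMIs of astrocyte-like cells (SD, n = 5 libraries), 1.20 ± 0.121% of those of radial glia-like cells and 0.0367 ± 0.00440% of those of excitatory neuron-like cells. Fabp7 supplied 80.3 ± 3.95% of the member UMIs in astrocyte-like cells. With every cell thinned to 3000 UMIs, the median astrocyte-like cell had a UMI of 5 members, the median radial glia-like cell of 4 and the median intermediate progenitor-like cell of 1.

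**Figure D1:**
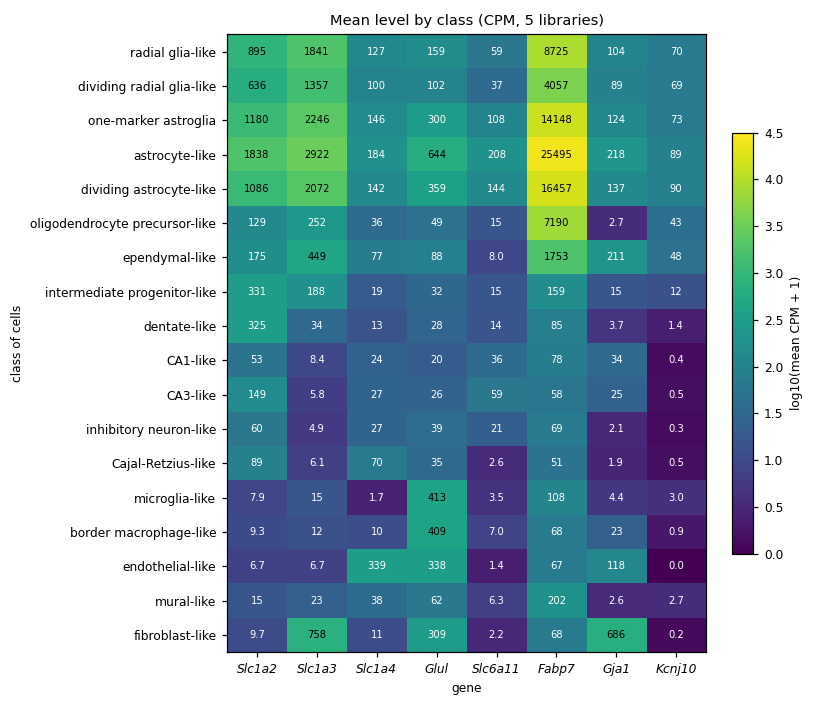
Mean level of each member (columns) in 18 classes of cells (rows) in CPM over 5 libraries, with the value in each field and colour on a log scale. Astrocyte-like cells have the highest mean of Slc1a2, Slc1a3, Glul, Slc6a11 and Fabp7, and dividing astrocyte-like cells that of Kcnj10 (89.8 CPM). Slc1a4 is highest in endothelial-like (339 CPM) and Gja1 in fibroblast-like cells (686 CPM). Glul is lower in radial glia-like (159 CPM) than in microglia-like cells (413 CPM).

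Slc1a2 was highest in astrocyte-like cells and reached into some neurons. Its level was 1838 ± 356 CPM in astrocyte-like cells (mean ± SD of 5 libraries, here and for the levels that follow), 1086 ± 157 CPM in dividing astrocyte-like cells and 895 ± 83.2 CPM in radial glia-like cells, the last 2 overlapping over libraries. Intermediate progenitor-like cells had 331 ± 20.9 CPM and dentate-like granule neurons 325 ± 14.9 CPM, and these neighbours overlapped over libraries. CA3-like neurons had 149 ± 22.4 CPM and oligodendrocyte precursor-like cells 129 ± 13.1 CPM, again with overlap. Inhibitory neuron-like cells, at 60.1 ± 11.5 CPM, overlapped CA1-like neurons, at 53.0 ± 6.07 CPM. Endothelial-like, microglia-like and fibroblast-like cells held under 10 CPM.

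Slc1a3 was high in glia and near background in most neurons. It had 2922 ± 174 CPM in astrocyte-like and 1841 ± 159 CPM in radial glia-like cells, with no overlap over libraries. Fibroblast-like cells followed outside the astroglia with 758 ± 129 CPM, and ependymal-like cells, which line the ventricle, with 449 ± 78.0 CPM. Oligodendrocyte precursor-like cells had 252 ± 22.7 CPM, intermediate progenitor-like cells 188 ± 19.4 CPM and dentate-like neurons 33.7 ± 14.7 CPM. CA1-like, CA3-like, inhibitory neuron-like and Cajal-Retzius-like cells lay between 4.86 and 8.43 CPM on average.

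Slc1a4 and Glul were high in other cells as well. Slc1a4 had 339 ± 31.9 CPM in endothelial-like cells, 184 ± 19.8 CPM in astrocyte-like cells and 127 ± 20.7 CPM in radial glia-like cells. Cajal-Retzius-like neurons, early reelin-producing cells, had 69.6 ± 7.71 CPM. Glul had 644 ± 80.5 CPM in astrocyte-like cells, above 413 ± 24.3 CPM in microglia-like cells without overlap. Border macrophage-like cells, at 409 ± 135 CPM, overlapped both, since they reached 594 CPM and astrocyte-like cells went down to 575 CPM. Endothelial-like cells, at 338 ± 124 CPM, overlapped the microglia-like cells. Radial glia-like cells had 159 ± 33.5 CPM of Glul. After thinning, 65.1 ± 7.09% (77.8% before thinning) of microglia-like cells had a Glul UMI, against 9.26 ± 0.473% (23.2% before thinning) of inhibitory neuron-like cells, at median unthinned depths of 7319 and 6586 UMIs. By library the microglia-like median ran from 2263 to 10312 UMIs.

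Slc6a11 had 208 ± 44.1 CPM in astrocyte-like cells, and its 59.4 ± 13.4 CPM in radial glia-like cells overlapped 59.1 ± 6.46 CPM in CA3-like neurons. Fabp7 had 25495 ± 4222 CPM in astrocyte-like, 8725 ± 1240.0 CPM in radial glia-like and 7190.2 ± 662 CPM in oligodendrocyte precursor-like cells, the last 2 overlapping. Gja1 had 686 ± 189 CPM in fibroblast-like cells, then 218 ± 44.0 CPM in astrocyte-like and 211 ± 36.6 CPM in ependymal-like cells, which overlapped, and 2.73 ± 1.403 CPM in oligodendrocyte precursor-like cells. Kcnj10 differed little over the astroglia, with 89.8 ± 13.2 CPM in dividing astrocyte-like, 88.7 ± 12.6 CPM in astrocyte-like and 70.1 ± 14.5 CPM in radial glia-like cells, and these neighbours overlapped. Oligodendrocyte precursor-like cells had 43.3 ± 8.64 CPM of it. No Kcnj10 UMI was found in 163 endothelial-like cells, where a count of 0 allows up to 2.16 CPM (3 counts over the class, counting error only).

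The genes most like each member in mean log2(CPM + 1) over 18 classes are given as a description, since all classes share the same libraries. Slc1a2 was most like Mmd2 (r = 0.96) and the proteoglycan gene Ncan (r = 0.96). Slc6a11 was most like Ncan (r = 0.92) and Ndp, the gene of norrin (r = 0.91). Slc1a3 was followed by Gas1 (r = 0.96) and Pdpn (r = 0.95), Glul by Apoe (r = 0.93) and Fuca1 (r = 0.91), and Gja1 by Gsta4 (r = 0.88) and Emp1 (r = 0.87). Kcnj10 lay closest to the transcription factor genes Sox21 (r = 0.98) and Rfx4 (r = 0.98), and Fabp7 to the gene model Gm6145 (r = 0.97) and Sox21 (r = 0.97). Among the members themselves Fabp7 and Kcnj10 were most alike (r = 0.96) and Glul and Slc1a2 least (r = -0.04). The partners of Slc1a4 were Atl2 (r = 0.88) and Hey1 (r = 0.86).

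Between astrocyte-like and radial glia-like cells all 8 members differed, and all were higher in astrocyte-like cells, where 16.9% of 11392 genes tested were called higher and 15.8% lower. Glul had 575 and 597 CPM in KO and 666, 605 and 774 CPM in WT libraries in astrocyte-like cells, against 135 and 158 CPM in KO and 160.0, 128 and 213 CPM in WT libraries in radial glia-like cells. The classes did not overlap, and the log2 difference was 2.12 ± 0.073 (SE, edgeR quasi-likelihood test with the library as a block, adjusted p = 7.8e-40 over all genes tested). Slc6a11 had 163 and 257 CPM in KO and 206, 165 and 248 CPM in WT libraries in astrocyte-like cells, against 70.3 and 48.6 CPM in KO and 74.1, 43.2 and 60.9 CPM in WT libraries in radial glia-like cells. They did not overlap either, with a log2 difference of 1.87 ± 0.11 (SE, adjusted p = 5.6e-25, edgeR).

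Fabp7 had 28617 and 22614 CPM in KO and 27480.1, 29221 and 19541 CPM in WT libraries in astrocyte-like cells, against 9993 and 8058 CPM in KO and 9618, 9022 and 6932 CPM in WT libraries in radial glia-like cells. Its log2 difference was 1.63 ± 0.042, with the classes far apart in every library. The log2 differences of Gja1 (1.16 ± 0.097), Slc1a2 (1.11 ± 0.054), Slc1a3 (0.76 ± 0.046) and Slc1a4 (0.63 ± 0.091) were smaller. Kcnj10 had 79.2 and 95.5 CPM in KO and 107, 76.2 and 85.9 CPM in WT libraries in astrocyte-like cells, against 53.2 and 74.1 CPM in KO and 91.7, 61.7 and 69.9 CPM in WT libraries in radial glia-like cells. Its classes overlapped, although each library was higher in astrocyte-like cells, and the log2 difference was 0.43 ± 0.12 (adjusted p = 0.0026, edgeR). With at most 5% mitochondrial UMIs per cell the Kcnj10 call was lost (0.21, adjusted p = 0.3, edgeR).

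The share of cells with a UMI was compared as well. After thinning, which left out 82 shallower astrocyte-like and 74 radial glia-like cells, a Glul UMI was found in 75.6 ± 2.20% (91.2% before thinning) of astrocyte-like cells, against 31.8 ± 1.38% (50.1% before thinning) of radial glia-like cells. For Slc1a2 the shares were 94.0 ± 1.83% (98.7% before thinning) of astrocyte-like and 81.0 ± 4.58% (84.8% before thinning) of radial glia-like cells. Slc6a11 had a UMI in 37.4 ± 4.99% (61.9% before thinning) of astrocyte-like and 15.7 ± 2.97% (24.7% before thinning) of radial glia-like cells, and Kcnj10 in 23.0 ± 2.56% (48.8% before thinning) of astrocyte-like and 19.8 ± 5.49% (30.0% before thinning) of radial glia-like cells. In microglia-like cells, which should lack Slc6a11, it was found in 1.90 ± 3.104% (1.59% before thinning). Shares after thinning are means over libraries, and those before thinning pool all cells of the class, so the 2 are not the same measure.

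Splitting the non-dividing astroglia by the number of astrocyte markers gave a graded series. With 0, 1, 2, 3 and at least 4 markers, Glul averaged 159, 300.2, 502, 665 and 780.1 CPM, and Slc1a2 averaged 895, 1179.5, 1551, 1816 and 2192 CPM. Slc6a11 averaged 59.4, 108, 133, 204 and 293 CPM over these steps. Kcnj10 averaged 70.1, 73.0, 81.9, 87.1 and 97.4 CPM, and its neighbouring steps overlapped over libraries. Median depth was 6305, 6791, 7446, 8409 and 8913 UMIs over the same steps, so depth moved with the series, and its part was not tested within the steps.

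**Figure D2:**
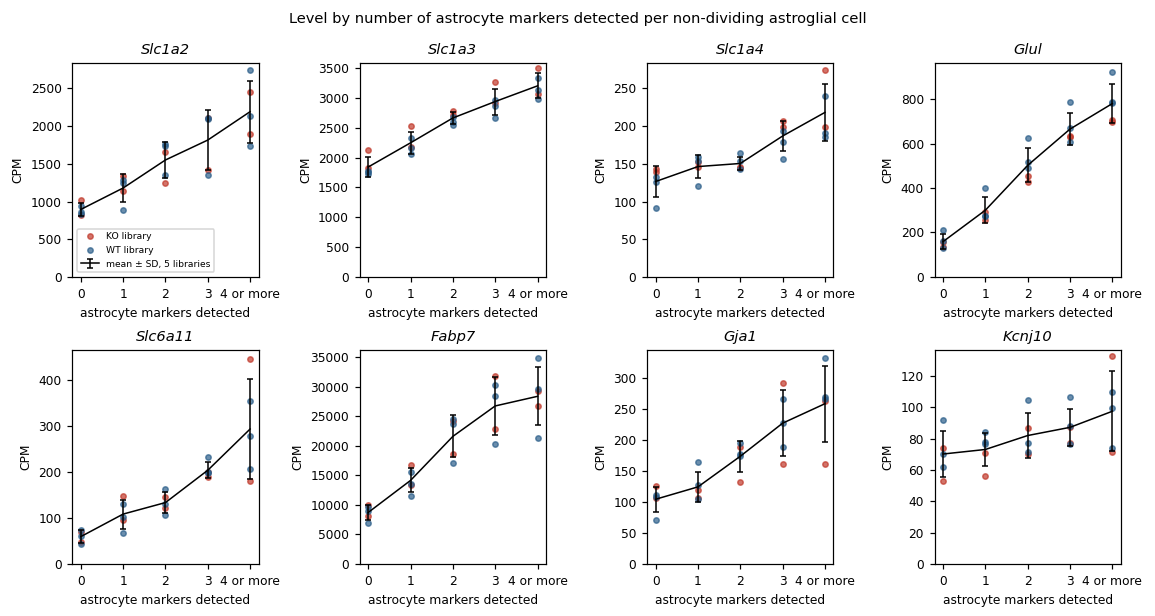
Level of each member (CPM, 1 panel per gene) by the number of astrocyte markers detected in a non-dividing astroglial cell, as the mean ± SD of 5 libraries. Glul averages 159 CPM with no marker and 780.1 CPM with at least 4, and Kcnj10 70.1 and 97.4 CPM.

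Other genes of the pathway, in lists that hold no member, differed by list. Of 23 astroglial companion genes tested, 22 were higher and 1 lower in astrocyte-like cells, among them Apoe, a lipid carrier (2.26 ± 0.048 on the log2 scale), and Sparcl1, a secreted protein that promotes synapses (1.87 ± 0.058). Of 5 further carriers tested, from a list of 10, 3 were higher and 0 lower. Among the higher ones were Slc7a11, the cystine and glutamate exchanger (2.37 ± 0.21) and Slc6a9, the glycine carrier GlyT1 (1.51 ± 0.26). The glutamine cycle list was split, 4 higher and 3 lower of 11. Slc38a3, a glutamine carrier of astrocytes, differed by 1.94 ± 0.18, while Slc38a1, a glutamine carrier best known from neurons, fell by 0.87 (SE 0.088). Of 10 ion, water and coupling genes tested, 6 were higher and 0 lower, with the bicarbonate carrier Slc4a4 at 2.72 ± 0.079. Transcription factors of radial glia went both ways, 5 higher and 5 lower of 12, and Hes6 fell by 1.45 (SE 0.11).

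Dividing radial glia-like cells had less of 5 members than non-dividing ones and more of none, where 13.1% of 8571 genes tested were called lower and 15.3% higher. Fabp7 had 3726 and 4064 CPM in KO and 4720.5, 3827 and 3948 CPM in WT libraries in dividing cells, against 9993 and 8058 CPM in KO and 9618, 9022 and 6932 CPM in WT libraries in non-dividing cells. The classes did not overlap, and Fabp7 fell by 1.06 on the log2 scale (SE 0.054, adjusted p = 8.4e-26, edgeR). Slc6a11 fell by 0.67, Glul by 0.57, Slc1a2 by 0.48 and Slc1a3 by 0.40. Slc1a4 (-0.26 ± 0.13), Gja1 (-0.18 ± 0.13) and Kcnj10 (0.045 ± 0.15) did not pass. Dividing cells were deeper, at 8504 to 11080 median UMIs by library against 5189 to 7517 in non-dividing cells, and in cells of 5000 to 15000 UMIs Slc6a11 lost its call (-0.52, adjusted p = 0.1, edgeR). Without KO replicate 2, Slc6a11 also lost its call (-0.48, adjusted p = 0.087, edgeR), and without WT replicate 2, Slc1a4 gained one (-0.37, adjusted p = 0.047, edgeR). Of the companions tested, 15 of 20 were lower and 0 higher, among them Aldoc, an enzyme of glycolysis, which fell by 2.13 (SE 0.081).

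The same comparison among astrocyte-like cells was added after the class sizes were seen. There 7 members were lower in dividing cells, where 20.4% of 11802 genes tested were called lower and 21.7% higher. Glul fell by 0.82 (SE 0.064), Slc1a2 by 0.74 (SE 0.05) and Gja1 by 0.63 (SE 0.076), and the other 4 by 0.36 (Slc1a4) to 0.63 (Fabp7). Kcnj10 had 99.9 and 87.0 CPM in KO and 101, 68.5 and 92.2 CPM in WT libraries in dividing cells, against 79.2 and 95.5 CPM in KO and 107, 76.2 and 85.9 CPM in WT libraries in non-dividing cells. These overlapped, and the log2 difference was 0.021 ± 0.092 (adjusted p = 0.88, edgeR). With clusters in place of marker gates it was -0.33 and passed (adjusted p = 5.4e-04, edgeR). Of the companions, 20 of 23 were lower and 1 higher, and Gfap, the astrocyte filament gene, fell by 2.14 (SE 0.078). Slc1a5, the glutamine carrier ASCT2, was higher in dividing cells (2.15 ± 0.43). Median depth by library was 10691 to 13777 UMIs in dividing and 7288 to 9576 UMIs in non-dividing cells, and in cells of 5000 to 15000 UMIs the 7 members were still called lower.

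Oligodendrocyte precursor-like cells had lower levels of all 8 members than radial glia-like cells, where 22.6% of 9850 genes tested were called lower and 24.6% higher. Gja1 differed most, with 3.27 and 2.16 CPM in KO and 2.92, 0.756 and 4.56 CPM in WT libraries in precursors, against 106 and 125 CPM in KO and 111, 71.0 and 108 CPM in WT libraries in radial glia-like cells. It fell by 5.13 on the log2 scale (SE 0.23, adjusted p = 9.9e-24, edgeR), resting on 21 UMIs in 889 precursor cells. Slc1a3 fell by 2.86, Slc1a2 by 2.77, Slc6a11 by 1.93, Slc1a4 by 1.80, Glul by 1.72 and Kcnj10 by 0.69. Fabp7 fell by only 0.27 (SE 0.038), and in cells of 5000 to 15000 UMIs its difference was 0.026 (adjusted p = 0.69, edgeR), with the other sign. Dividing precursors were not set apart: the summed division panel was 1937 CPM in precursor-like and 48.2 CPM in radial glia-like cells, from which dividing cells had been set apart, and its part in these differences was not tested.

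Other carriers took another course in the precursors. Slc1a1, the glutamate carrier EAAC1, was higher by 3.73 ± 0.27 and Slc1a6, the carrier EAAT4, by 2.14 ± 0.44, so 2 of 6 carriers tested were higher and 2 lower. Of the glutamine cycle list, 4 were higher and 4 lower of 11: Glud1, glutamate dehydrogenase, fell by 2.77 (SE 0.074) and Slc25a18, a mitochondrial glutamate carrier, by 3.79 (SE 0.26). Of the companions 17 of 22 were lower and 4 higher, and of 12 radial glia transcription factors 12 were lower.

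Intermediate progenitor-like cells, the daughters of radial glia marked by Eomes and Neurog2, were lower than radial glia-like cells in all 8 members, where 27.1% of 10731 genes tested were called lower and 26.6% higher. Their gate allowed at most 2 of 8 astroglial markers, where radial glia-like cells had at least 4. A fall of genes that go with those markers is thus partly built into the classes. Slc1a2 had 323 and 343 CPM in KO and 361, 316 and 311 CPM in WT libraries in progenitors, against 816 and 1019 CPM in KO and 938, 839 and 862 CPM in WT libraries in radial glia-like cells. Its fall of 1.38 (SE 0.052) was the smallest of the 8, and Fabp7 had the largest, 5.72 (SE 0.064). The other 6 fell by 1.96 (Slc6a11) to 3.24 (Slc1a3). After thinning, 54.6 ± 4.12% (80.9% before thinning) of progenitors had a Slc1a2 UMI, against 2.99 ± 3.72% (4.37% before thinning) of microglia-like cells, at median unthinned depths of 8159 and 7319 UMIs. By library the microglia-like median ran from 2263 to 10312 UMIs. Dividing progenitors were not set apart either: the division panel was 1612 CPM in progenitors and 48.2 CPM in radial glia-like cells, and its part was not tested. Companions were lower in 21 of 22 tested and higher in 1.

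Levels in neurons were set against free RNA, the RNA of broken cells that droplets take up. Over 10 classes outside the glial lineage and its progenitors Fabp7 was not uniform. It had 51.4 CPM in Cajal-Retzius-like, 58.2 CPM in CA3-like, 67.3 CPM in endothelial-like, 67.6 CPM in fibroblast-like and 84.8 CPM in dentate-like cells, but 108 ± 61.5 CPM in microglia-like and 202 ± 69.7 CPM in mural-like cells. Taking all Fabp7 of such a class as free RNA, with the gene mix of all kept cells of the library, gave the level that free RNA would add for each other member. This scale was chosen after the levels were seen, and it overstates free RNA in a class that makes Fabp7. Excitatory and inhibitory neuron-like cells had been let in with few astroglial and no astrocyte markers. That left out droplets richer in astroglial RNA, and the gene mix came from kept cells and not from empty droplets. The effect of either on the scale was not tested. On it, Slc1a3 in CA3-like neurons was 5.80 CPM observed against 8.11 CPM from free RNA, above it in 0 of 5 libraries. In inhibitory neuron-like cells it was 4.86 against 9.61 CPM, again in 0 of 5. In CA1-like neurons Slc1a3 was 8.43 against 10.98 CPM, above it in 1.00 of 5. These Slc1a3 levels are read as background. Kcnj10 was also under the free-RNA level on average in CA1-like (ratio of means 0.774) and inhibitory neuron-like cells (0.851). These ratios rest on 2 and 4 UMIs, too few to place Kcnj10 on either side. It was above that level in 5 of 5 libraries in dentate-like (2.89, 23 UMIs) and excitatory neuron-like cells (1.86, 83 UMIs). In CA3-like cells it was above in 4 of 5 (1.35, 12 UMIs).

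Slc1a2, Slc1a4, Glul and Slc6a11 exceeded the free-RNA level in CA1-like, CA3-like, dentate-like and inhibitory neuron-like cells in all 5 libraries. Slc1a2 in dentate-like neurons had 319 and 315 CPM in KO and 351, 315 and 326 CPM in WT libraries, 26.5 to 61.3 times that level. Slc6a11 in CA3-like neurons had 56.2 and 58.1 CPM in KO and 65.7, 65.3 and 50.4 CPM in WT libraries, 46.0 to 101 times it. Gja1 was 20.4 times the free-RNA level in CA1-like and 20.9 times in CA3-like neurons, but 2.07 times in dentate-like and 1.45 times in inhibitory neuron-like cells. After thinning, 6.09 ± 2.17% (14.7% before thinning) of CA1-like cells had a Gja1 UMI, against 0.648 ± 0.567% (1.76% before thinning) of inhibitory neuron-like cells, at median unthinned depths of 8984 and 6586 UMIs. The summed fibroblast panel in CA1-like cells ranged from 10.3 to 56.1 CPM over libraries and from 2.93 to 7.30 CPM in CA3-like cells, and its part in the Gja1 level was not tested. Outside neurons, Glul in microglia-like and Slc1a4 in endothelial-like cells were 89.4 and 255 times the free-RNA level.

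**Figure D3:**
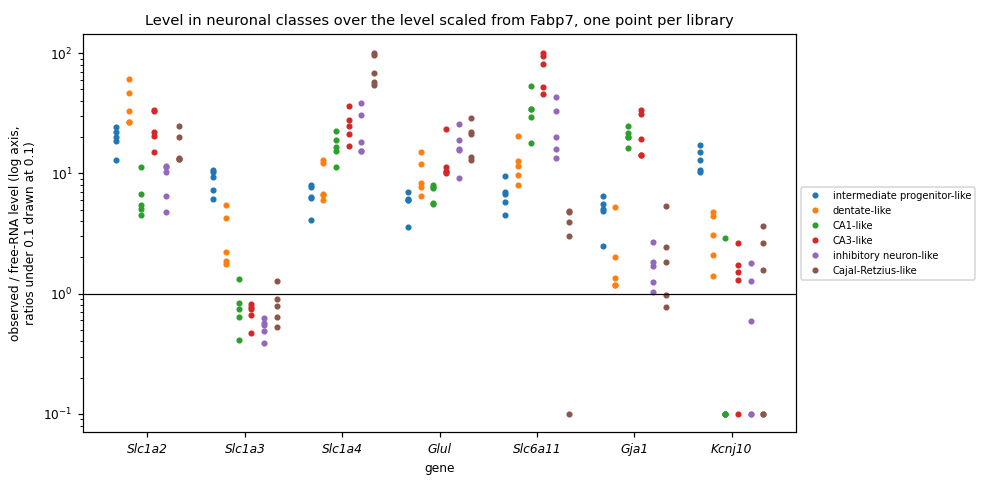
Observed level of the members in progenitor and neuronal classes divided by the level that free RNA would give when scaled from Fabp7 (log axis, 1 point per library, line at 1 for equality, ratios under 0.1 drawn at 0.1). Slc1a3 lies below the line in CA3-like and inhibitory neuron-like cells, and Slc1a2 in dentate-like cells lies at 26.5 to 61.3.

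The hippocampal fields differed in these genes. CA3-like neurons were higher than CA1-like neurons in Slc1a2 (1.498 ± 0.096 on the log2 scale), Slc6a11 (0.71 ± 0.12) and Glul (0.45 ± 0.16) and lower in Gja1 (-0.51 ± 0.17) and Fabp7 (-0.47 ± 0.096), where 16.4% of 11329 genes tested were called higher and 14.5% lower. Slc1a3 and Slc1a4 did not pass, and Kcnj10 was too low to test. Slc1a2 had 139 and 119.5 CPM in KO and 169, 174 and 144 CPM in WT libraries in CA3-like neurons, against 44.2 and 54.6 CPM in KO and 49.6, 59.1 and 57.4 CPM in WT libraries in CA1-like neurons, with no overlap. The Fabp7 level in both fields is the one taken above as free RNA, and with clusters in place of gates the call was lost (-0.15, adjusted p = 0.16, edgeR).

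The Glul call was lost without KO replicate 2 (0.32, adjusted p = 0.19), KO replicate 3 (0.46, adjusted p = 0.066) or WT replicate 3 (0.44, adjusted p = 0.11), all by edgeR. The Gja1 call was lost without KO replicate 3 (-0.31, adjusted p = 0.23), WT replicate 1 (-0.49, adjusted p = 0.052) or WT replicate 3 (-0.48, adjusted p = 0.11). CA3-like cells were deeper, with a median of 16354 UMIs against 8984 in CA1-like cells, and Slc1a2 and Slc6a11 were still called in cells of 5000 to 15000 UMIs. Among other carriers, Slc1a1 fell by 0.61 (SE 0.11) in CA3-like neurons.

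Dentate-like neurons were compared with CA1-like neurons after the levels had been seen. They were higher in Slc1a2 (2.65 ± 0.088), Slc1a3 (1.78 ± 0.22) and Glul (0.47 ± 0.15) and lower in Gja1 (-3.38 ± 0.29), Slc6a11 (-1.26 ± 0.17) and Slc1a4 (-0.93 ± 0.17), where 20.2% of 11048 genes tested were called higher and 21.3% lower. The CA1-like level of Slc1a3 lay under the free-RNA level, so the Slc1a3 difference is taken over background. Gja1 had 0.939 and 1.88 CPM in KO and 4.51, 7.24 and 3.85 CPM in WT libraries in dentate-like neurons, against 19.97 and 44.6 CPM in KO and 30.1, 23.1 and 49.9 CPM in WT libraries in CA1-like neurons, with no overlap. Slc1a1 fell by 1.402 (SE 0.14) in dentate-like neurons. The summed intermediate progenitor panel was 374 CPM in dentate-like and 116 CPM in CA1-like cells, and its part in the Slc1a2 and Slc1a3 levels was not tested. The Glul call was lost without WT replicate 3 (0.49, adjusted p = 0.052, edgeR).

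The genotype comparison asks whether loss of Trem2, a gene of microglia, goes with other levels in the cells around them. No member passed in any of 7 classes. By edgeR 0 genes were called in each, 0% of 7499 (radial glia-like) to 14724 (excitatory neuron-like) genes tested. At an unadjusted p under 0.05 there were 246 genes in radial glia-like, 314 in dividing radial glia-like, 294 in astrocyte-like, 315 in oligodendrocyte precursor-like, 468 in intermediate progenitor-like, 466 in excitatory neuron-like and 512 in inhibitory neuron-like cells. DESeq2 called 1 gene in intermediate progenitor-like, 2 in excitatory neuron-like and 1 in inhibitory neuron-like cells and 0 in the other 4 classes. Gja1 in oligodendrocyte precursor-like cells and Slc1a3, Gja1 and Kcnj10 in inhibitory neuron-like cells were too low to test. With 2 against 3 pools, a p that misses the threshold does not show that levels are alike. The labels do not say that pools came from separate litters, so p-values measure the spread between these pools.

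Glul in astrocyte-like cells was lower in both KO libraries, at 575 and 597 CPM, than in every WT library, at 666, 605 and 774 CPM. The nearest pair, KO replicate 3 and WT replicate 2, lay close together. The log2 difference was -0.23 ± 0.13 (unadjusted p = 0.1, adjusted p = 0.999, edgeR), and it ranged from -0.29 to -0.15 over 14 alternatives. Slc1a2 had 1473 and 2065 CPM in KO and 2213, 1443 and 1998 CPM in WT libraries, which overlapped, with a difference of -0.11 ± 0.18. Slc1a3 had 2881 and 3174 CPM in KO and 3011, 2733 and 2813 CPM in WT libraries, also with overlap, and differed by 0.069 ± 0.14. Gja1 had 151 and 249 CPM in KO and 225, 203 and 263 CPM in WT libraries and differed by -0.22 ± 0.17, a value of 0.081 without KO replicate 2 and -0.61 without KO replicate 3. The differences of Slc1a4 (0.11 ± 0.13), Slc6a11 (0.012 ± 0.18), Fabp7 (-0.0084 ± 0.21) and Kcnj10 (-0.06 ± 0.16) lay within their errors.

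In radial glia-like cells Slc1a3 and Slc1a4 were higher in both KO libraries than in every WT library. Slc1a3 had 1823 and 2119 CPM in KO libraries, against 1752, 1782 and 1729.5 CPM in WT libraries, a log2 difference of 0.18 ± 0.13. Slc1a4 had 139 and 144 CPM in KO libraries, against 133, 126 and 91.4 CPM in WT libraries, a difference of 0.28 ± 0.20. Neither passed (adjusted p = 0.998 for both, edgeR). A direct test of whether the genotype effect differed between astrocyte-like and radial glia-like cells called 0 genes, 0% of 11392 tested by edgeR, and 443 genes had an unadjusted p under 0.05. For Gja1 that difference of differences was -0.54 ± 0.21 (unadjusted p = 0.012, adjusted p = 1, edgeR).

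**Figure D4:**
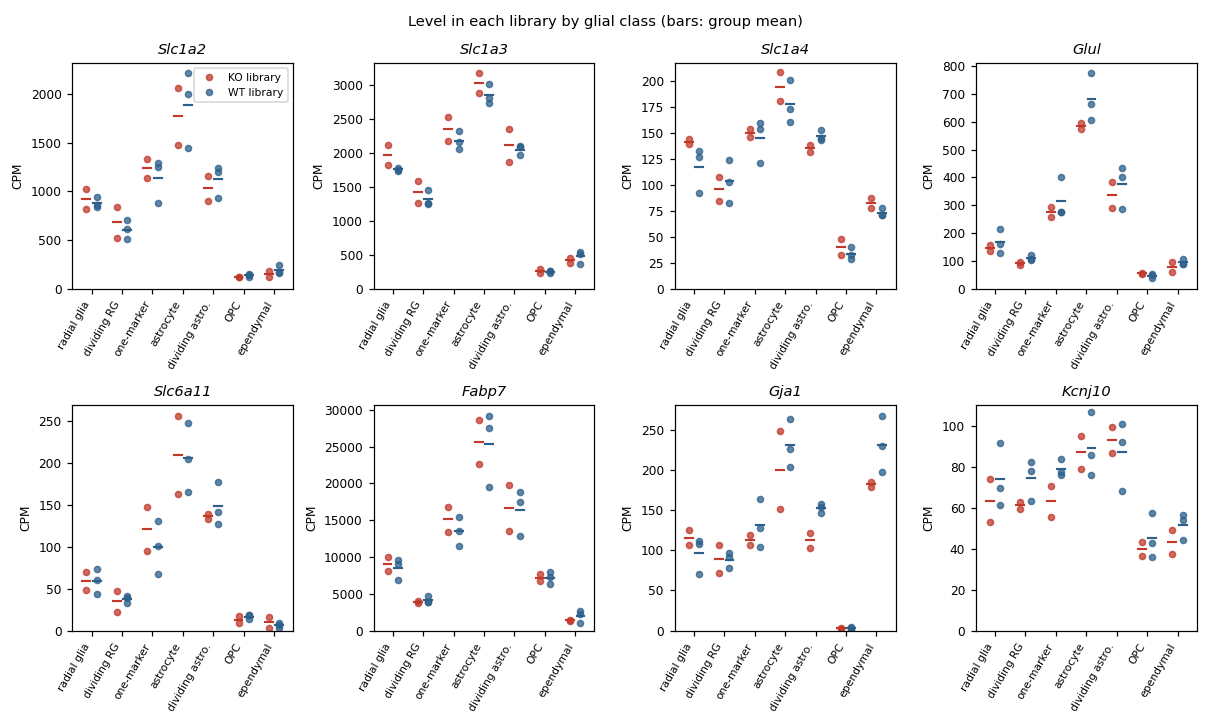
Level of each member (CPM, 1 panel per gene) in 7 glial classes, with KO libraries (red) left of WT libraries (blue) and bars at the group means. Glul in astrocyte-like cells, at 575 and 597 CPM in KO and 666, 605 and 774 CPM in WT libraries, does not overlap.

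Non-overlap of libraries was counted for the members and for all genes with a mean of at least 5 CPM. Both KO libraries lay above every WT library for 2 members in radial glia-like (9.15% of all such genes), 0 in dividing radial glia-like (9.96%), 0 in astrocyte-like (9.15%), 1 in oligodendrocyte precursor-like (9.72%), 0 in intermediate progenitor-like (9.66%), 0 in excitatory neuron-like (7.44%) and 0 in inhibitory neuron-like cells (7.94%). Both lay below every WT library for 0 members in radial glia-like (9.98%), 2 in dividing radial glia-like (10.1%), 1 in astrocyte-like (7.15%), 0 in oligodendrocyte precursor-like (9.7%), 1 in intermediate progenitor-like (9.6%), 5 in excitatory neuron-like (10.8%) and 2 in inhibitory neuron-like cells (10.9%). In excitatory neuron-like cells these were Slc1a3, Slc1a4, Glul, Fabp7 and Gja1.

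Glul also lay apart in 2 further glial classes. Glul in oligodendrocyte precursor-like cells had 52.3 and 56.3 CPM in KO libraries, against 47.1, 37.8 and 51.3 CPM in WT libraries, a log2 difference of 0.25 ± 0.20. In dividing radial glia-like cells Glul had 97.2 and 84.5 CPM in KO libraries, against 104, 105 and 120.0 CPM in WT libraries, a difference of -0.26 ± 0.20, and Kcnj10 had 63.2 and 59.6 CPM in KO libraries, against 82.7, 63.7 and 78.0 CPM in WT libraries, a difference of -0.27 ± 0.24. The Glul values thus lay on opposite sides in these classes, and the difference between them was not tested. In excitatory neuron-like cells Slc1a3 had 11.6 and 11.9 CPM in KO libraries, against 16.4, 22.5 and 12.5 CPM in WT libraries, a difference of -0.51 ± 0.22, and its WT libraries spread more widely than its KO libraries. Slc1a2 in CA3-like neurons had 2 KO libraries below every WT library, as its values above show, and no test of genotype was run in a single field.

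The largest genotype differences among members lay in neurons, where their levels are low. Gja1 in excitatory neuron-like cells had 15.2 and 17.4 CPM in KO libraries, against 21.3, 28.0 and 31.8 CPM in WT libraries, with no overlap and a log2 difference of -0.72 ± 0.17 (unadjusted p = 0.0014, adjusted p = 0.999, edgeR). In CA1-like cells Gja1 had 19.97 and 44.6 CPM in KO and 30.1, 23.1 and 49.9 CPM in WT libraries, with overlap. In CA3-like cells it had 19.6 and 19.1 CPM in KO and 18.2, 36.3 and 32.3 CPM in WT libraries, also with overlap. In dentate-like cells, whose values stand above, both KO libraries lay below every WT library. The excitatory difference ran from -0.93 to -0.55 over 14 alternatives, and was called in 1 of them, the fit with the replicate number as a block (-0.86, adjusted p = 5.3e-04, edgeR). That fit sets only same-numbered libraries against each other. WT replicate 1, at 21.3 CPM the WT library nearest the KO libraries, has no KO partner and does not enter the difference.

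Fabp7 was lower in both KO libraries than in every WT library in inhibitory neuron-like, excitatory neuron-like and intermediate progenitor-like cells, the first 2 of which hold it at the level taken as free RNA. In inhibitory neuron-like cells it had 43.3 and 48.4 CPM in KO libraries, against 116, 60.8 and 75.1 CPM in WT libraries, a log2 difference of -0.86 ± 0.21 (unadjusted p = 7.6e-04, adjusted p = 0.77, edgeR). In excitatory neuron-like cells it had 60.5 and 62.8 CPM in KO libraries, against 107, 84.3 and 72.5 CPM in WT libraries, a difference of -0.49 ± 0.15, and in intermediate progenitor-like cells the difference was -0.39 ± 0.14. Over 12 classes outside the astroglia and oligodendrocyte precursors, of which excitatory neuron-like cells include the 3 hippocampal fields, both KO libraries lay below every WT library in Fabp7 in 7 and above in 0. The libraries overlapped in the other 5: CA1-like, CA3-like, endothelial-like, microglia-like and mural-like cells. Of all genes with a mean of at least 5 CPM, 9.6% lay below in this way in intermediate progenitor-like cells. The share was 10.8% in excitatory neuron-like and 10.9% in inhibitory neuron-like cells, and none was taken for the other classes. All 12 classes come from the same libraries, so they are not separate observations. Endothelial-like cells had 65.3 ± 13.7 CPM in KO and 68.6 ± 17.2 CPM in WT libraries, and CA1-like cells 70.7 ± 3.099 CPM in KO and 83.4 ± 24.6 CPM in WT libraries. Fibroblast-like cells had 56.5 ± 1.24 CPM in KO and 75.01 ± 11.4 CPM in WT libraries (mean ± SD, n = 2 and 3), and Cajal-Retzius-like cells 38.7 ± 6.001 CPM in KO and 59.9 ± 15.3 CPM in WT libraries.

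Over all kept cells of a library Fabp7 had 2981 and 2082 CPM in KO and 5519.5, 4790.4 and 2242 CPM in WT libraries, which overlapped. Slc1a3, Slc1a4 and Slc6a11 overlapped as well. Gja1 had 43.7 and 51.5 CPM in KO and 91.45, 76.4 and 77.6 CPM in WT libraries. Glul had 92.4 and 86.6 CPM in KO and 167, 143 and 130 CPM in WT libraries. For Gja1, Glul, Slc1a2 and Kcnj10 both KO libraries lay below every WT library. The share of all genes that did so over all kept cells was not taken. Astrocyte-like cells made up 6.47 and 7.11% of kept cells in KO libraries, against 13.4, 8.77 and 7.77% in WT libraries (two-sided exact permutation p = 0.2, where this design allows no p below 0.1). The difference of -3.18 percentage points was -1.48 without WT replicate 1. With at most 5% mitochondrial UMIs it was -1.41, and the libraries then overlapped. Oligodendrocyte precursor-like cells made up 2.10 and 2.08% in KO libraries, against 4.49, 3.31 and 3.02% in WT libraries (exact permutation p = 0.1). The part of these library levels and shares in the Fabp7 and Gja1 levels of neurons was not tested.

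**Figure D5:**
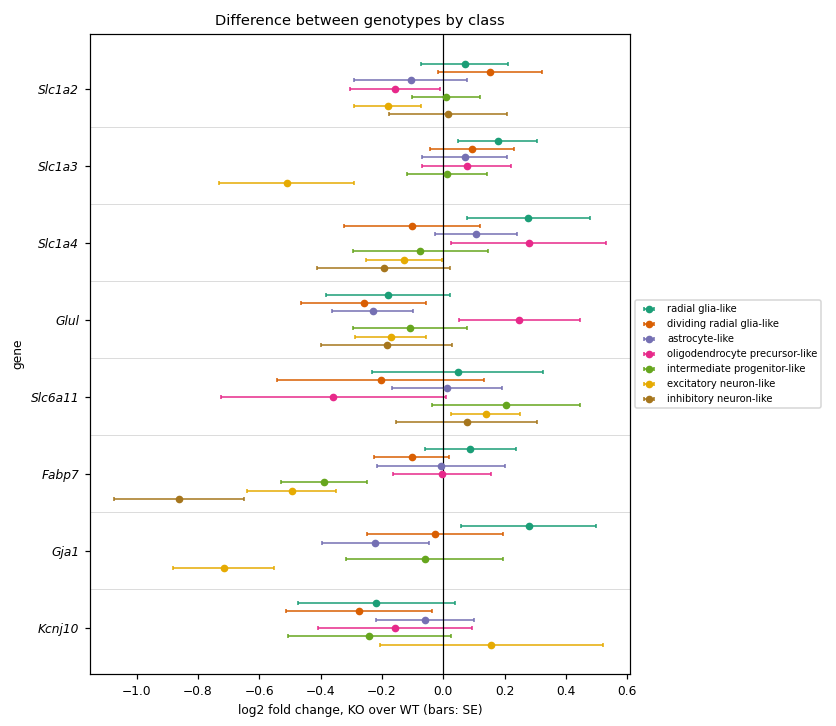
Log2 fold change, KO over WT, of each member in 7 classes, with bars for the standard error derived from the edgeR F statistic and a line at 0. Fabp7 in inhibitory neuron-like (-0.86) and Gja1 in excitatory neuron-like cells (-0.72) lie lowest.

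No gene of the 5 companion lists was called between genotypes in any class. In astrocyte-like cells 7 of 23 astroglial companions lay above 0 and 16 below, with a median log2 difference of -0.035, beside 0.0018 over all genes tested. In excitatory neuron-like cells 4 of 20 companions tested lay above 0 and 16 below, with a median of -0.12, beside -0.011 over all genes tested. The direction was not the same over classes and lists. Companions above 0 numbered 13 of 20 in dividing radial glia-like cells (median 0.13), 8 of 20 in radial glia-like (-0.052), 9 of 20 in oligodendrocyte precursor-like (-0.034), 5 of 20 in intermediate progenitor-like (-0.12) and 5 of 18 in inhibitory neuron-like cells (-0.28). Of the radial glia transcription factors, 12 of 12 lay above 0 in astrocyte-like cells (median 0.073), 9 of 12 in radial glia-like (0.16), 2 of 12 in excitatory neuron-like (-0.23) and 1 of 10 in inhibitory neuron-like cells (-0.32).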

How the data were processed

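The authors deposited UMI counts per gene and barcode (10x Genomics 3′ chemistry), made with Cell Ranger 6.1 on mm10 per the submitters' processing notes. The gene annotation is not given. Barcodes were kept from 500 genes and 1000 UMIs up, with no more than 15% of UMIs mitochondrial, and doublets were removed with Scrublet at a rate of 0.8% per 1000 cells, falling back on the highest scores up to the expected rate in both KO libraries and WT replicate 2, where it marked under 0.5%. Classes rest on fixed marker panels, with at least 4 of 8 astroglial, 4 of 6 oligodendrocyte precursor or 3 of 6 intermediate progenitor markers. The UMIs of a class were added up in each library, and these sums were tested with edgeR 4.0.16 in R 4.3.3 (TMM scaling, filterByExpr, quasi-likelihood test, Benjamini-Hochberg adjustment over all genes tested, threshold 0.05), with the library as a block between classes. The SE of a log2 difference is its absolute value divided by the square root of the F statistic of that test. A class needed 20 cells in every library in the main setting, and a lower minimum held for alternative sets of cells. Levels are counts per 1000000 UMIs (CPM) of the sum. Shares of cells with a UMI were taken after thinning to 3000 UMIs, leaving out shallower cells, as means over libraries. Shares before thinning pool all cells of the class. The fit was checked on simulated data. Alternatives were DESeq2 1.42.0, RLE size factors, other filters and gates, Leiden clusters (scanpy 1.11.5, leidenalg 0.10.2), the replicate number as a block and each library left out.

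The members and gene lists were chosen with earlier results of these data known. Named genes are all members, Trem2, of each list up to 4 genes with the smallest p in a comparison, and per member the 2 genes of highest correlation over classes. Genes of that last rule had at least 20 CPM in 1 class. A few genes that this rule names are not reported here. The comparisons of dividing with non-dividing astrocyte-like cells and of dentate-like with CA1-like cells, the free-RNA scale and the window of 5000 to 15000 UMIs were chosen after seeing the data.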

Additional observations from a re-analysis of the deposited data

Results flagged for a closer look

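For 3 members both KO libraries lay above every WT library in 1 class and below every WT library in another, among the 7 classes compared between genotypes. Slc1a3 was higher in radial glia-like cells (log2 difference 0.18) and lower in excitatory neuron-like cells (-0.51). Slc1a4 was higher in radial glia-like cells (0.28) and lower in excitatory neuron-like (-0.13) and inhibitory neuron-like cells (-0.19). Glul was higher in oligodendrocyte precursor-like cells (0.25) and lower in dividing radial glia-like (-0.26), astrocyte-like (-0.23) and excitatory neuron-like cells (-0.17). None of these passed edgeR's test within its class, and the differences between these classes were not tested. The same pattern of both directions over the 7 classes was held by 1514 of 11834 genes with a mean of at least 5 CPM in 2 classes or more (12.8%), beside 3 of the 8 members.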

How the results depend on the processing

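Genes called between genotypes, 0 by edgeR in each class and for the difference between astrocyte-like and radial glia-like cells, depended on the test. With no filter on low counts they numbered 5 in radial glia-like, 5 in dividing radial glia-like, 18 in astrocyte-like, 3 in oligodendrocyte precursor-like, 15 in intermediate progenitor-like, 2 in excitatory neuron-like and 40 in inhibitory neuron-like cells, and 1 for the difference between classes. With the replicate number as a block they numbered 10 in radial glia-like, 8 in dividing radial glia-like, 10 in astrocyte-like, 24 in oligodendrocyte precursor-like, 31 in intermediate progenitor-like, 41 in excitatory neuron-like and 5 in inhibitory neuron-like cells. In the block fit WT replicate 1, which has no KO partner, does not enter the difference. Same-numbered libraries correlated in their deviations from the group means at 0.110 to 0.388, and also match in the sexes pooled, but only 2 numbers are shared and no label says that a number marks a litter, batch or day, so they were not treated as pairs. The block called Gja1 in excitatory neuron-like cells (-0.86, adjusted p = 5.3e-04, edgeR), and no filter called Fabp7 in inhibitory neuron-like cells (-0.84, adjusted p = 0.0022). DESeq2 called 1 gene in intermediate progenitor-like, 2 in excitatory neuron-like and 1 in inhibitory neuron-like cells. Keeping doublets gave 3 in intermediate progenitor-like cells, and a stricter gate or the depth window 1 gene for the difference between classes. Leaving out single libraries gave 0 to 2 in radial glia-like, 0 to 6 in dividing radial glia-like, 0 to 8 in astrocyte-like, 0 in oligodendrocyte precursor-like, 0 to 5 in intermediate progenitor-like, 0 to 4 in excitatory neuron-like and 0 to 15 in inhibitory neuron-like cells, and 0 to 3 for the difference between classes. Of 710 values of the members between genotypes, 89 had the other sign, none of them called.

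Between classes, DESeq2 called 992 genes for dividing radial glia-like over radial glia-like cells against 2433 by edgeR, 2942 against 4647 for oligodendrocyte precursor-like over radial glia-like cells, 2153 against 3500 for CA3-like over CA1-like and 3246 against 4960 for dividing over non-dividing astrocyte-like cells. The 5% mitochondrial limit gave 2482 against 3726 for astrocyte-like over radial glia-like cells, the stricter gate 2971 for dividing astrocyte-like cells, the depth window 1451 for CA3-like over CA1-like, and clusters 6545 for CA3-like over CA1-like and 8829 against 4588 for dentate-like over CA1-like. The sign turned for Fabp7 in precursors over radial glia-like cells in the depth window (0.026, adjusted p = 0.69) and for Kcnj10 in dividing over non-dividing astrocyte-like cells with clusters (-0.33, adjusted p = 5.4e-04). Calls were lost for Glul in CA3-like over CA1-like (DESeq2 0.45, stricter gate 0.25, depth window 0.44), Gja1 there (DESeq2 -0.46, stricter gate -0.66), Fabp7 there (clusters -0.15), Glul in dentate-like over CA1-like (DESeq2 0.50, stricter gate 0.29), Slc6a11 in dividing radial glia-like cells (DESeq2 -0.67) and Fabp7 in precursors (5% mitochondrial limit -0.13). Calls were gained for Slc1a4 in dividing radial glia-like cells (5% mitochondrial limit -0.45) and Slc1a3 in CA3-like over CA1-like (clusters -0.35). The cause was not tested. Of 656 values of the members between classes 628 kept their side of the threshold. Another 3 also kept it, but changed sign and moved by at least the SE of the main fit. Any of the 628 that changed sign were not called and moved by less than that SE. Clusters gave no value for comparisons with radial glia-like cells, since no cluster was named so. The 5% limit gave none for those with CA1-like cells, where a library fell under the lower minimum of cells for alternative sets. With 433 radial glia-like cells, depth limits low members there, and the level that a count of 0 allows covers counting error only.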
